A study of Mus musculus with 14 samples.

Results

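The mitochondrial ribosome, or mitoribosome, is the ribosome of the mitochondrial matrix. It translates the few respiratory-chain proteins that mitochondrial DNA encodes, on ribosomal RNA made in the mitochondrion, while its proteins are encoded in the nucleus, made in the cytosol and imported. Some of its proteins have bacterial counterparts and others are specific to mitochondria. Mrpl genes are named for the large subunit, which forms peptide bonds, and Mrps genes for the small subunit, which reads the messenger RNA. The subunit groups below follow these names, although some Mrps products, such as that of Mrps18a, are placed elsewhere. The genes described here are the rows of the count table whose symbol starts with Mrpl or Mrps followed by a digit, 78 of 25131 rows, of which 49 are Mrpl and 29 Mrps. They lie on 17 chromosomes, with none on chromosomes 12, 18, X or Y. A filter on low counts kept 74 of them for testing, 47 Mrpl and 27 Mrps, among 10241 genes.

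All samples came from mouse ESCs (embryonic stem cells) on a C57BL/6 background, and the culture medium held serum, the cytokine LIF and the 2i inhibitors PD0325901, which blocks MEK, and CHIR99021, which blocks GSK3. The 14 samples of the series include RNA-seq of Rcor2 knockout (KO) cells (2 libraries) and of wild-type (WT) cells without that knockout (2 libraries), and chromatin immunoprecipitation (ChIP) of RCOR2 carrying an HA tag (2 libraries) with negative controls (2 libraries, from WT cells and from mCherry-expressing cells). RCOR2 is a corepressor of the CoREST family, which joins histone demethylase and deacetylase subunits. The part of Rcor2 that was deleted, the number of KO clones and whether replicates were separate cultures were not stated in the sources used. The p-values therefore measure only how far these libraries spread, and that spread may be technical.

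The RNA-seq libraries held 2951498 and 1974865 counts in KO cells and 2368804 and 1286393 in WT cells. Rcor2 itself had 157 and 103 counts in KO cells, against 193 and 107 in WT cells, which gave log2 −0.59 for KO over WT (SE 0.23, adjusted p from edgeR = 0.0636). Reads outside a deleted part would still be counted, so this row is a limited check of the labels. ESC markers were expressed in every library, 8 of 8 tested, with summed levels of 3511 and 3602 counts per 1e6 counts (CPM) in KO cells and 3183 and 3032 CPM in WT cells. Of these, Klf4 (log2 1.3), Tfcp2l1 (log2 0.87) and Nanog (log2 0.48) were called higher and Dppa5a (log2 −0.47) lower as measured. Relative to their chromosomes, Klf4 (log2 1.3) and Tfcp2l1 (log2 0.99) were called higher. Sox2 (log2 −0.72), Dppa5a (log2 −0.45) and Nanog (log2 −0.44) were called lower by that measure. Blood markers were at 0 throughout, and the 7 fibroblast or feeder markers summed to 18.6 and 11.0 CPM in KO cells and 15.6 and 25.9 CPM in WT cells, with S100a4 at 0. The 5 primitive endoderm markers summed to 6.90 and 3.14 CPM in KO cells and 1.69 and 3.81 CPM in WT cells, with Foxa2 at 0, and the 4 neural markers to 19.3 and 46.0 CPM in KO cells and 60.7 and 42.7 CPM in WT cells, with Nes called lower. The 5 trophoblast markers summed to 110 and 122 CPM in KO cells and 29.5 and 23.6 CPM in WT cells, with the keratins Krt8 and Krt18 called higher and Cdx2 at 8 and 6 counts in KO cells and 0 and 0 in WT cells. The part of these markers in the results below was not tested. Genes of chromosomes 3, 6 and 8 as a whole were shifted up in KO cells and those of chromosome 11 down, so each comparison is given as measured and also relative to the gene's own chromosome. The 2 genes tested on chromosome Y were called lower as well (median log2 −6.02), and that chromosome holds no mitoribosomal gene. In bulk RNA, fewer cells of a type and less RNA per cell cannot be told apart.

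Promoter sequences show the starting material of the comparison between binding and expression. The 5 stretches below run from 200 bases before to 30 bases after the start in RefSeq (GRCm38.p6), 5′ to 3′ on the strand of the gene. They were chosen because Mrps24, Mrpl58 and Mrps5 fell in KO cells by both measures and have an RCOR2 peak over the start, because Mrpl53 rose only as measured without regard to its chromosome, and because the Mrps11 stretch also holds the start of Mrpl46, which is read from the other strand. Capitals mark matches, on either strand, to 3 motifs: the NRF1 core GCATGCGC, the core CCGGAAG of ETS factors such as GABP, and the YY1 motif AANATGGCG. All are transcription factors known to bind promoters of nuclear genes for mitochondrial proteins.
Mrps24, chr11:5707672-5707901, minus strand: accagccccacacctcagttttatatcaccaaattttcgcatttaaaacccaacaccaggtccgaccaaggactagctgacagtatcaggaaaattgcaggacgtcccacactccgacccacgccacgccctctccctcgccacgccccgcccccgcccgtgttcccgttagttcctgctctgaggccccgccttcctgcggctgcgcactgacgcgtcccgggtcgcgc
Mrpl58, chr11:115403552-115403781, plus strand: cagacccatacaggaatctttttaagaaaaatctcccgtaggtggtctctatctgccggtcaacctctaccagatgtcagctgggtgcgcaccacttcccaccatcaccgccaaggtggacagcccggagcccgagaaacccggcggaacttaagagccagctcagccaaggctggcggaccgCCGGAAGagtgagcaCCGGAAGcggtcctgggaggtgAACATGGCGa
Mrps5, chr2:127587226-127587455, plus strand: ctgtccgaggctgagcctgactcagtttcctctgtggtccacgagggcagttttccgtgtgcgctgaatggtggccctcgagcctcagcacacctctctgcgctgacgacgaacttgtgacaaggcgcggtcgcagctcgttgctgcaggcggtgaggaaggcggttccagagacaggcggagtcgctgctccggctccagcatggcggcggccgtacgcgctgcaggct
Mrpl53, chr6:83108908-83109137, plus strand: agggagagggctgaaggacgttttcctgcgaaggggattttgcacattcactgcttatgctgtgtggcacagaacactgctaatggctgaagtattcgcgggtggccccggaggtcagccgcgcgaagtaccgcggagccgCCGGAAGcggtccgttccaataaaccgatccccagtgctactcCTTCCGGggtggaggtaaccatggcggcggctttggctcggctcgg
Mrps11, chr7:78782931-78783160, plus strand: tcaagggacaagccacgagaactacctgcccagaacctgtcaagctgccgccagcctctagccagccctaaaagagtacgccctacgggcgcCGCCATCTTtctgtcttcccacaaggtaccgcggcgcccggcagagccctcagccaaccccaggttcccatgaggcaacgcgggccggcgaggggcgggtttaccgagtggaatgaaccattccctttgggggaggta
The Mrpl58 stretch holds 2 ETS matches upstream of a YY1 match, Mrpl53 holds 2 ETS matches on opposite strands, Mrps11 holds a YY1 match on the minus strand, and the Mrps24 and Mrps5 stretches hold none of the 3 motifs. Mrps24 has a YY1 match just past the printed end, and is counted among the YY1 matches in the longer windows below.

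Over all promoter windows in the table (250 bases before to 50 after the start, the first start listed per gene), 69 of the 78 mitoribosomal genes had a window. The ETS core was present in 36.2% of these windows (25 of 69), against 20.2% for tested genes and 9.12% for the 27025 windows of all genes. The YY1 motif was in 15.9% (11 of 69), against 6.23% of tested genes and 2.51% of all windows. The NRF1 core was in 11.6% (8 of 69), against 6.19% and 2.80% in the same populations. The SP1 motif GGGCGG was in 49.3% (34 of 69), below the 67.2% of tested genes and above the 35.9% of all windows. The MYC E-box CACGTG was in 7.25% (5 of 69), against 10.9% and 7.24%. None of the motifs contains another, and a match is a description of the sequence and not a binding site. Among tested mitoribosomal genes, the 24 with an ETS match had a median log2 fold change, relative to the chromosome, of −0.10, with 1 called lower. The 41 without one had a median of −0.23, with 7 called lower. For the 7 tested genes with an NRF1 match the median was −0.27, with 0 called lower. It was −0.20 in the 58 without one, with 8 called lower. The 11 with a YY1 match had a median of −0.10, with 3 called lower. In the 54 without one it was −0.21, with 5 called lower. Over all genes, 6.67% were called lower relative to the chromosome. Differences between genes with and without a match were not tested.

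RNA of mitoribosomal genes as a group made up a smaller share of the counts in KO cells. Summed over all 78 genes, it came to 9314 and 9431 CPM in KO cells and 11600 and 10422 CPM in WT cells, which is 0.914% and 0.913% of the counts in KO cells and 1.16% and 1.06% in WT cells. Both KO libraries lay below both WT libraries, and the KO mean was 0.851 of the WT mean. The sum for the large subunit was 6394 and 6511 CPM in KO cells against 7710 and 6842 CPM in WT cells, a ratio of means of 0.887. The sum for the small subunit was 2921 and 2920 CPM in KO cells against 3890 and 3580 CPM in WT cells, a ratio of 0.782. The sum for the large subunit over that for the small subunit was 2.19 and 2.23 in KO cells and 1.98 and 1.91 in WT cells, so that the libraries of the groups did not overlap. These sums follow the genes with the most reads and are not corrected for gene length.

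**Figure D1:**
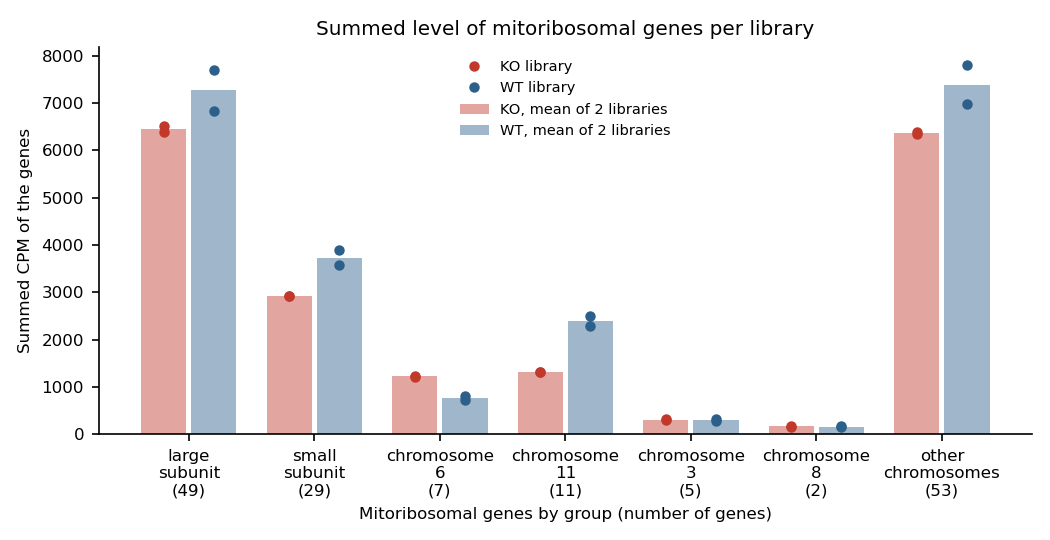
Summed level of mitoribosomal genes in CPM (vertical axis) for each subunit and each chromosome group, with 1 point per library, bars for the mean of 2 libraries and KO left of WT. The KO libraries lie below the WT libraries for the small subunit (2921 and 2920 against 3890 and 3580 CPM) and above them for chromosome 6 (1213 and 1230 against 817 and 727 CPM).

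In the comparison of KO with WT cells across all genes, 5 mitoribosomal genes rose and 15 fell of 74 tested (edgeR quasi-likelihood test, adjusted p under 0.05). The background over all 10241 genes was 10.4% called higher and 9.3% called lower. The median log2 fold change of the 74 genes was −0.21, against −0.02 for all genes, and the standard deviation of their fold changes was 0.55 against 0.91. Large-subunit genes gave 3 higher and 8 lower of 47 with a median of −0.20, and small-subunit genes 2 higher and 7 lower of 27 with a median of −0.24. Both KO libraries lay below both WT libraries for 40 of the 74 genes, where 28.8% of all genes did so, and above both for 15, where 28.1% of all genes did so. The libraries of the groups overlapped for the other 19. The count of genes that fell was 8 without the first KO library. Mitoribosomal genes had more reads than most: their median count per library was 225.5, against 64.0 for all genes tested.

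Of the 20 calls, 13 were for genes of chromosomes 6 and 11, which hold 7 and 11 of the tested genes. On chromosome 6, 5 of 7 mitoribosomal genes rose and none fell, with a median log2 fold change of 0.98, while 56.2% of all tested genes of that chromosome were called higher, with a median of 0.92. On chromosome 11, 8 of 11 fell and none rose, with a median of −0.88, while 31.1% of all tested genes there were called lower, with a median of −0.49. None of the 4 genes tested on chromosome 3 was called (median −0.02, against 0.48 for all genes there, of which 26.2% were called higher), and neither were the 2 on chromosome 8 (median 0.05, against 0.52 for all genes there, of which 29.4% were called higher). By summed level, the chromosome 6 genes stood at 1213 and 1230 CPM in KO cells and 817 and 727 CPM in WT cells, a ratio of means of 1.58. The chromosome 11 genes stood at 1315 and 1310 CPM in KO cells and 2497 and 2286 CPM in WT cells, a ratio of 0.549. On all remaining chromosomes, 7 of 50 fell and none rose, with a median of −0.21 against −0.05 for all genes there, of which 8.09% were called lower and 6.02% higher. At an unadjusted p under 0.05, 2 of the 50 were higher in KO cells, Mrpl13 and Mrpl49, and 11 lower, where 10.7% of all genes there were higher and 14.2% lower. The summed level of those genes was 6338 and 6383 CPM in KO cells and 7797 and 6983 CPM in WT cells, a ratio of 0.861.

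**Figure D2:**
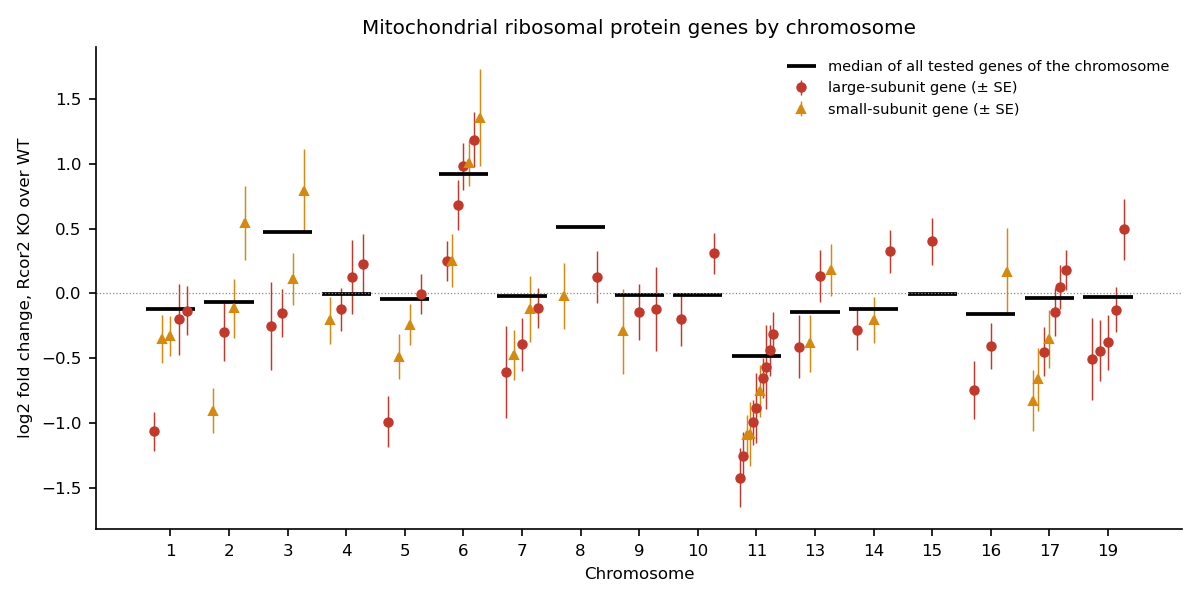
Log2 fold change, KO over WT, of each tested mitoribosomal gene by chromosome, as circles for the large subunit and triangles for the small subunit with error bars of 1 SE, and with the median of all tested genes of that chromosome as a bar. Genes of chromosome 6 lie around a median of 0.98 and those of chromosome 11 around −0.88, beside medians of 0.92 and −0.49 for all genes of those chromosomes.

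The 5 genes that rose all lie on chromosome 6. Mrpl53, a large-subunit protein specific to mitochondria, had 147 and 125 CPM in KO cells, against 58.2 and 61.7 CPM in WT cells, log2 1.19 for KO over WT (SE 0.21, edgeR adjusted p = 1.83e-05). Mrps25, a small-subunit protein, had 208 and 210 CPM in KO cells, against 98.2 and 111 CPM in WT cells (log2 1.00, SE 0.18, edgeR adjusted p = 2.10e-05). Mrpl19, a large-subunit protein with a bacterial counterpart, had 217 and 234 CPM in KO cells, against 128 and 98.3 CPM in WT cells (log2 0.98, SE 0.18, edgeR adjusted p = 2.93e-05). In these genes both KO libraries lay well above both WT libraries, with changes close to the median of the chromosome. Mrps33 had 29.3 and 41.9 CPM in KO cells, against 12.6 and 15.2 CPM in WT cells (log2 1.36, edgeR adjusted p = 0.00627), and its call was lost without the second KO library (adjusted p = 0.138). Mrpl51 had 167 and 151 CPM in KO cells, against 116 and 80.0 CPM in WT cells (log2 0.68, edgeR adjusted p = 0.00783), and its call was lost without the first KO library (adjusted p = 0.144) or the second WT library (adjusted p = 0.143). The other tested genes of chromosome 6, Mrpl35 and Mrps35, each had a log2 fold change of 0.25 and did not pass the test (edgeR adjusted p = 0.276 and 0.433).

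Of the 8 genes of chromosome 11 that fell, Mrpl38 did so by the largest fold among all 74 tested. This large-subunit gene had 41.4 and 42.9 CPM in KO cells, against 112 and 114 CPM in WT cells (log2 −1.42, SE 0.23, edgeR adjusted p = 2.38e-06). Mrpl58, which encodes a peptidyl-tRNA hydrolase built into the large subunit that in human cells frees stalled mitoribosomes, had 86.6 and 86.3 CPM in KO cells, against 218 and 194 CPM in WT cells (log2 −1.25, SE 0.18, edgeR adjusted p = 4.05e-07). Mrps24, a small-subunit protein with a bacterial counterpart, had 383 and 347 CPM in KO cells, against 794 and 760 CPM in WT cells (log2 −1.09, SE 0.15, edgeR adjusted p = 5.73e-08). In each of these genes the KO libraries were close to each other and far below both WT libraries.

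Mrps23 had 43.5 and 35.6 CPM in KO cells, against 94.0 and 73.9 CPM in WT cells (log2 −1.09, edgeR adjusted p = 0.000753). Mrpl55, specific to mitochondria, had 125 and 121 CPM in KO cells, against 266 and 222 CPM in WT cells (log2 −0.99, edgeR adjusted p = 1.28e-05). Mrpl22, which has a bacterial counterpart at the exit tunnel of the large subunit, had 33.1 and 34.0 CPM in KO cells, against 59.4 and 64.8 CPM in WT cells (log2 −0.88, edgeR adjusted p = 0.0148). The groups did not overlap for any of these genes, but Mrpl22 lost its call without either KO library (adjusted p = 0.110 and 0.0850) or the second WT library (adjusted p = 0.0681). Mrps7, a small-subunit protein with a bacterial counterpart, had 71.4 and 93.1 CPM in KO cells, against 128 and 149 CPM in WT cells (log2 −0.75, edgeR adjusted p = 0.00458). Mrpl45, which sits by the exit tunnel and in human cells ties the mitoribosome to the inner membrane, had 240 and 262 CPM in KO cells, against 399 and 387 CPM in WT cells (log2 −0.65, edgeR adjusted p = 0.00129). Without the first KO library the calls of Mrps7 (adjusted p = 0.198) and Mrpl45 (adjusted p = 0.0871) were lost. The remaining 3 tested genes of the chromosome did not pass the test: Mrpl10 and Mrpl12, which encode proteins of the stalk that contacts translation factors, had log2 fold changes of −0.57 and −0.32, and Mrpl27 one of −0.44.

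Outside the shifted chromosomes, 7 genes fell. Mrpl15 (chromosome 1), a large-subunit protein with a bacterial counterpart, had 305 and 273 CPM in KO cells, against 645 and 563 CPM in WT cells (log2 −1.06, SE 0.15, edgeR adjusted p = 2.14e-07). Mrpl1 (chromosome 5), the protein of the mobile L1 stalk, had 92.2 and 81.6 CPM in KO cells, against 205 and 138 CPM in WT cells (log2 −0.99, SE 0.20, edgeR adjusted p = 0.000111). Mrps5 (chromosome 2), a small-subunit protein with a bacterial counterpart, had 119 and 118 CPM in KO cells, against 240 and 203 CPM in WT cells (log2 −0.91, SE 0.18, edgeR adjusted p = 7.97e-05). Both KO libraries were below both WT libraries in each. The Mrpl1 call was lost without the first WT library (log2 −0.65, adjusted p = 0.0549).

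Mrps10 (chromosome 17), which has a bacterial counterpart, had 45.6 and 50.2 CPM in KO cells, against 83.0 and 86.9 CPM in WT cells (log2 −0.83, edgeR adjusted p = 0.00804), and its call was lost without either KO library (adjusted p = 0.120 and 0.0525). Mrpl39 (chromosome 16) had 56.6 and 55.5 CPM in KO cells, against 103 and 83.8 CPM in WT cells (log2 −0.74, edgeR adjusted p = 0.0132), and its call was lost without either KO library (adjusted p = 0.105 and 0.122) or the first WT library (adjusted p = 0.209). Neither gene had overlapping groups. Mrps18a (chromosome 17) had 44.2 and 50.2 CPM in KO cells, against 77.6 and 70.9 CPM in WT cells (log2 −0.66, edgeR adjusted p = 0.0461), and Mrps17 (chromosome 5), which has a bacterial counterpart, had 133 and 146 CPM in KO cells, against 187 and 204 CPM in WT cells (log2 −0.49, edgeR adjusted p = 0.0391). The last 2 lay just inside the threshold, and each lost its call without each of the 4 libraries in turn, under DESeq2, without the filter on low counts, with a replicate block and with scaling to genes outside chromosomes 3, 6, 8 and 11. DESeq2 left 6 further calls above the threshold, those of Mrps33 (adjusted p = 0.0735), Mrpl51 (0.0674), Mrpl22 (0.119), Mrps7 (0.0539), Mrps10 (0.0796) and Mrpl39 (0.118).

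Mrps18a belongs to a family of 3 related genes named for the small subunit, although structures of the human mitoribosome place its protein in the large one. Its paralog Mrps18c had 253 and 233 CPM in KO cells, against 312 and 261 CPM in WT cells (log2 −0.24, edgeR adjusted p = 0.318), so the groups did not overlap but the difference did not pass the test. The third, Mrps18b, was left out by the filter with 4 and 0 counts in KO cells and 1 and 4 in WT cells. The other 3 genes left out were Mrpl23 (5 and 4 counts in KO cells, 5 and 3 in WT cells), Mrpl24 (9 and 6 in KO cells, 0 and 5 in WT cells) and Mrps36 (4 and 6 in KO cells, 8 and 1 in WT cells), whose product is now known as a subunit of the 2-oxoglutarate dehydrogenase complex rather than of the ribosome. The handling of reads shared with processed pseudogenes or overlapping genes was not stated in the sources used, and the intervals of 25 of the 78 genes overlap another gene.

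**Figure D3:**
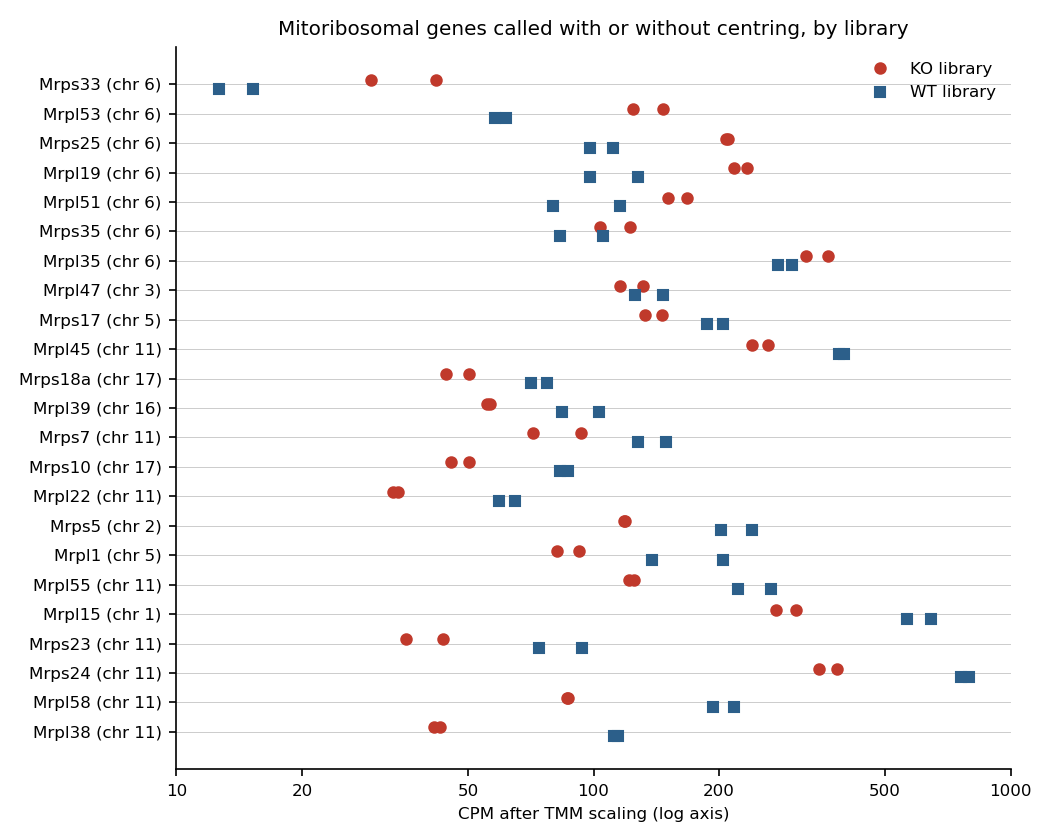
CPM (log axis) in each library, KO as circles and WT as squares, for the mitoribosomal genes called in KO against WT, as measured or relative to their chromosome. For all but Mrpl47 and Mrps35 the KO points and the WT points do not overlap, and the 5 genes with KO above WT as measured and called so lie on chromosome 6.

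Relative to their own chromosome, with the median log2 fold change of the tested genes of each chromosome as an offset, 0 mitoribosomal genes rose and 11 fell of 74 (edgeR, adjusted p under 0.05), where 6.28% of all genes were called higher and 6.67% lower. At an unadjusted p under 0.05, 5 were higher (Mrpl13, Mrpl42, Mrpl49, Mrpl52 and Mrps26, named after their values were seen) and 19 lower, where 12.5% of all genes were higher and 12.7% lower. No other tool was run with these offsets. Of the 74 genes, 54 lay below the median of their chromosome, where 50% of all genes do by construction. Their median was −0.21 and the standard deviation of their fold changes 0.37, against 0.85 for all genes. The large subunit gave 7 lower of 47 and the small subunit 4 lower of 27. Outside chromosomes 3, 6, 8 and 11, 4 of 50 fell and 37 lay below the median. Among all 7824 genes tested there, 484 were called lower and 3917 lay below the median. The count of 11 rests on every library but the second WT one: it was 3 without the first KO library, 5 without the second KO library and 7 without the first WT library.

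**Figure D4:**
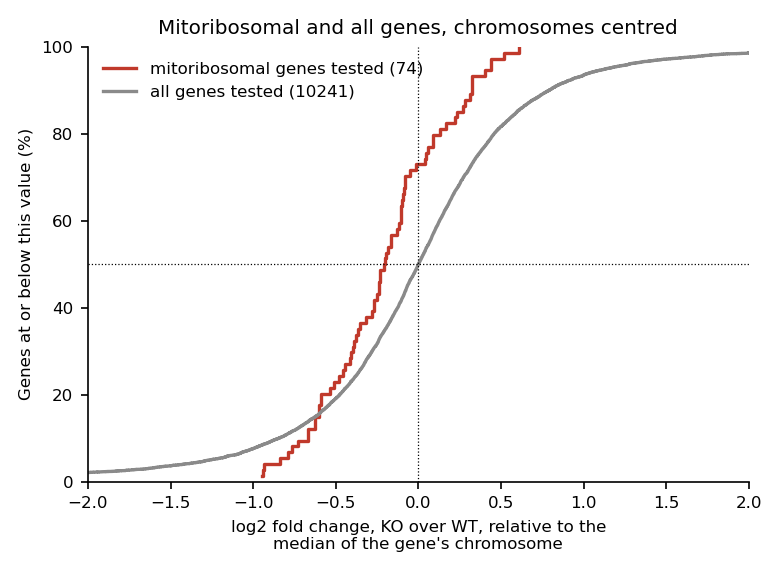
Cumulative share of genes in percent (vertical axis) at or below each log2 fold change, KO over WT, relative to the median of the gene's chromosome (horizontal axis), for mitoribosomal genes and for all tested genes. The mitoribosomal genes have a median of −0.21 and a standard deviation of 0.37, against 0.85 for all genes, and 54 of 74 lie below 0.

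Of the 11 genes, 8 were called by both measures. Mrpl15 fell by 0.94 on the log2 scale relative to chromosome 1 (edgeR adjusted p = 5.16e-06), Mrpl1 by 0.94 relative to chromosome 5 (adjusted p = 0.000397) and Mrps5 by 0.84 relative to chromosome 2 (adjusted p = 0.000444). The calls of Mrpl15 and Mrps5 held without each library in turn, and that of Mrpl1 was lost without the first WT library (adjusted p = 0.0705). Mrps10 fell by 0.79 relative to chromosome 17 (edgeR adjusted p = 0.0172), a call lost without either KO library (adjusted p = 0.227 and 0.0923) or the second WT library (adjusted p = 0.0573).

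The 4 chromosome 11 genes that still fell relative to that chromosome were Mrpl38 (log2 −0.94, edgeR adjusted p = 0.00256), Mrpl58 (log2 −0.77, adjusted p = 0.00221), Mrps24 (log2 −0.60, adjusted p = 0.00265) and Mrpl55 (log2 −0.51, adjusted p = 0.0387). Without the first KO library none of these passed (adjusted p = 0.0738, 0.0760, 0.0686 and 0.269). Without the second KO library Mrpl58 (adjusted p = 0.0663), Mrps24 (adjusted p = 0.210) and Mrpl55 (adjusted p = 0.314) did not pass, and Mrpl55 was also lost without the first WT library (adjusted p = 0.264) and with a replicate block (adjusted p = 0.0686). Mrps23 (log2 −0.60, adjusted p = 0.0981), Mrpl22 (log2 −0.40), Mrps7 (log2 −0.27) and Mrpl45 (log2 −0.16) did not pass.

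A further 3 genes were called only relative to their chromosome, since their levels were close in KO and WT cells while the chromosome was shifted up. Mrpl35 (chromosome 6), a large-subunit protein with a bacterial counterpart, had 322 and 365 CPM in KO cells, against 299 and 277 CPM in WT cells, and its log2 fold change relative to the chromosome was −0.67 (edgeR adjusted p = 0.00165). Mrps35 (chromosome 6) had 122 and 104 CPM in KO cells, against 105 and 83.0 CPM in WT cells (log2 −0.67 relative to the chromosome, edgeR adjusted p = 0.0203). Mrpl47 (chromosome 3), another large-subunit protein with a bacterial counterpart, had 116 and 131 CPM in KO cells, against 147 and 126 CPM in WT cells (log2 −0.63 relative to the chromosome, edgeR adjusted p = 0.0172). The groups overlapped for Mrps35 and Mrpl47, and Mrpl35 was slightly higher in both KO libraries. Their calls were lost without the first KO library (adjusted p = 0.124 for Mrpl35, 0.0849 for Mrps35 and 0.347 for Mrpl47), those of Mrps35 (0.329) and Mrpl47 (0.125) without the second KO library, and those of Mrps35 (0.28) and Mrpl47 (0.159) without the first WT library.

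The other tested genes of chromosomes 3 and 8 were called by neither measure. On chromosome 3, Mrps21 had a log2 fold change of 0.79 (edgeR adjusted p = 0.0779), Mrps28 of 0.11 and Mrpl9 of −0.25. On chromosome 8, Mrpl34 had one of 0.13 and Mrps31 one of −0.02. Relative to the chromosome, Mrps21 stood at 0.31 and the others at −0.37 for Mrps28, −0.73 for Mrpl9, −0.39 for Mrpl34 and −0.53 for Mrps31. The 5 called-higher genes of chromosome 6 stood close to their chromosome, from −0.24 for Mrpl51 to 0.44 for Mrps33, and none passed.

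RCOR2 binding was read from the authors' deposited list of 53366 peaks on chromosomes, called on merged libraries, so that replicates could not be compared. A peak summit lay within 1 kb of either end of 51 of the 78 mitoribosomal genes. Among tested genes this was 48 of 74, near the 67.3% of all tested genes. With peaks of a −log10 q value of at least 5, it was 31 of 74, where 40.8% of all tested genes had one, and with peaks of at least 5-fold enrichment 27 of 74, where 28.7% did. Within 1 kb of the start itself, 44 of the 69 genes with a listed start had a summit. Among tested genes with a listed start this was 42 of 65, against 70.9% of all tested genes with a listed start. For 25 of the 51 genes, a peak also lay within 1 kb of another protein-coding gene. Fold and −log10 q are the authors' values for each peak and rank peaks only within this list.

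The peak with the highest −log10 q was that of Mrpl45 at chr11:97313897-97315064, with 9.24-fold enrichment and a −log10 q of 21.8, rank 1863 in the list. Next were the peaks of Mrps16 (8.27-fold, −log10 q of 17.4), where the gene Cfap70 is also within 1 kb, and of Mrps30 (8.04-fold, −log10 q of 16.4). Mrps18a, Mrps18c and Mrps24 tied at 15.4, with 7.58-fold, 7.81-fold and 7.58-fold enrichment, and the Mrps18c peak also lies near Helq. Of these 6 genes, Mrpl45, Mrps18a and Mrps24 fell in KO cells as measured. Mrps16 (log2 −0.21), Mrps30 (log2 −0.39) and Mrps18c (log2 −0.24) did not pass the test. Over all genes tested, 9.3% were called lower as measured. On chromosome 11, which holds Mrpl45 and Mrps24, 31.1% were. Relative to the chromosome, only Mrps24 of the 6 was called (log2 −0.60), with Mrpl45 at −0.16 and Mrps18a at −0.62.

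Over the printed promoter stretches, the peak of Mrps24 at chr11:5707622-5707934 and that of Mrps5 at chr2:127587172-127587802 cover the whole stretch, and the Mrps5 peak also lies within 1 kb of Zfp661. The Mrpl58 start lies under a peak at chr11:115403614-115403923 of 5.30-fold enrichment, and a stronger one of 6.21-fold lies beyond the other end of the gene. The Mrpl53 peak at chr6:83108993-83109325 had 4.61-fold enrichment, with Ccdc142 also within 1 kb. The shared promoter of Mrps11 and Mrpl46 has a weak peak at chr7:78782881-78783111 (3.24-fold, −log10 q of 2.05). Neither gene of this divergent pair passed the test, with log2 fold changes of −0.12 for Mrps11 and −0.39 for Mrpl46.

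Of the 48 tested genes with any peak within 1 kb, 9 fell relative to their chromosome, and of the 26 without one, 2 did. Over all genes, 454 of 6877 with any peak and 229 of 3338 without one were called lower. The medians of mitoribosomal genes were −0.23 with any peak and −0.14 without. Of the 31 tested genes with a peak of a −log10 q of at least 5, 8 fell relative to their chromosome, and of the 43 without such a peak, 3 did. Over all genes the shares called lower were 7.47% with and 6.15% without such a peak. The 3 without were Mrpl35, whose peak has a −log10 q of 3.23, and Mrpl55 and Mrps10, with no peak within 1 kb. The median log2 fold change relative to the chromosome was −0.27 with such a peak and −0.11 without, against −0.01 and 0.01 for all genes. Neither the difference for any peak nor that for a peak of a −log10 q of at least 5 was tested. Its counts were 3 and 0 without the first KO library, 4 and 1 without the second KO library and 5 and 2 without the first WT library.

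**Figure D5:**
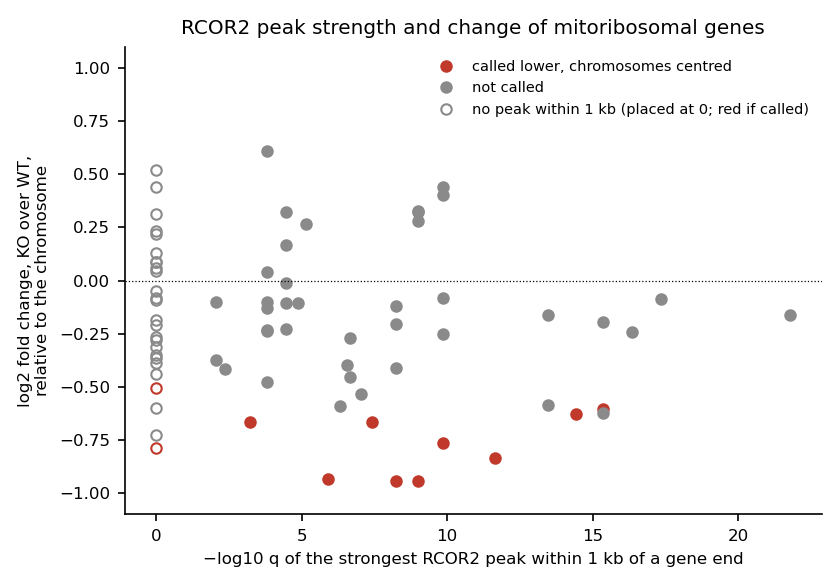
Log2 fold change, KO over WT, relative to the chromosome (vertical axis) against the −log10 q of the strongest RCOR2 peak within 1 kb of a gene end (horizontal axis), for each tested mitoribosomal gene; genes with no peak are drawn as open circles at 0 and called genes in red. Of the 11 called genes, 8 lie at a −log10 q of at least 5, where most genes were not called.

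Lists of other genes for mitochondrial gene expression were read in the same tests, against the shares of all genes called higher and lower, 10.4% and 9.3% as measured and 6.28% and 6.67% relative to the chromosome. Of 5 further mitoribosomal proteins not named Mrp that are in the table (Chchd1, Dap3, Aurkaip1, Ptcd3 and Gadd45gip1), none passed the test by either measure, and all 5 lay below the median of their chromosome. Of 25 tested factors for mitoribosome assembly and ribosomal RNA, none passed as measured, and only Malsu1, which in human cells keeps the large subunit from joining too early, fell relative to its chromosome, number 6 (log2 −0.97, edgeR adjusted p = 4.68e-05). Of 15 translation factors, Mtif2, the initiation factor, fell as measured (log2 −0.95, edgeR adjusted p = 0.00107). It lies on chromosome 11 and did not pass relative to that chromosome (log2 −0.46). Guf1, a translational GTPase, fell by both measures (log2 −1.33 as measured, edgeR adjusted p = 0.0276). Of 20 aminoacyl-tRNA synthetases and related enzymes, only Lars2, which charges leucine, fell, with 85.6 and 159 CPM in KO cells against 244 and 342 CPM in WT cells (log2 −1.27, edgeR adjusted p = 8.94e-07).

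Of 8 tested genes for mitochondrial transcription and DNA maintenance, 3 fell and 1 rose as measured. Tefm, the elongation factor of mitochondrial transcription, had 33.1 and 24.1 CPM in KO cells, against 93.2 and 90.7 CPM in WT cells (log2 −1.67, edgeR adjusted p = 1.09e-06), and it alone of the list also fell relative to its chromosome, number 11 (log2 −1.18). Polg2, a subunit of the mitochondrial DNA polymerase (log2 −1.53, edgeR adjusted p = 0.0116), and Mgme1, a nuclease (log2 −0.87, edgeR adjusted p = 0.0315), fell as measured. Polg2 also lies on chromosome 11 and did not pass relative to it (log2 −1.05). Ssbp1, the single-stranded DNA binding protein, rose as measured (log2 0.54, edgeR adjusted p = 0.0293) and lies on chromosome 6.

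Of 9 tested nuclear regulators of mitochondrial genes, 3 rose and 1 fell as measured. Gabpb2, a subunit of GABP, had 37.6 and 49.7 CPM in KO cells, against 16.9 and 13.7 CPM in WT cells (log2 1.48, edgeR adjusted p = 0.00113), and also rose relative to chromosome 3 (log2 1.00). Esrra, a nuclear receptor, was called higher by both measures (log2 1.20, edgeR adjusted p = 0.0107), but had 82.8 and 20.9 CPM in KO cells, against 22.8 and 23.6 CPM in WT cells, so that only the first KO library was high and the groups overlapped. Nrf1, on chromosome 6, rose as measured (log2 1.00, edgeR adjusted p = 0.0275) and stood at 0.08 relative to that chromosome. Mycn fell as measured (log2 −0.65, edgeR adjusted p = 0.0259). Gabpa, which carries the DNA-binding part of GABP, and Yy1 had log2 fold changes of −0.07 and −0.02 and did not pass.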

How the data were processed

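The authors deposited raw counts of reads for each gene symbol, 1 column per RNA-seq library. RCOR2 peaks carry the ratio of ChIP over control (fold) and −log10 q values, as deposited by the authors in 1 merged list. Per the submitters' processing notes, tools included STAR 2.5.2b, Trimmomatic 0.36, SAMtools 1.8, Bowtie2 2.3.4.1, bedtools 2.25.0, MACS2 2.1.1.20160309, HOMER, Subread and featureCounts, with builds GRCm38 and mm10, without roles. Use of strand and of molecular identifiers was not stated in the sources used. Per the labels' protocols, the ChIP replicates differ in instrument and read layout.

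RefSeq GRCm38.p6 placed 25027 of 25131 rows, 24695 by symbol and 332 by synonym. Counts were filtered with filterByExpr, scaled by TMM and tested with edgeR 4.0.16 (R 4.3.3), quasi-likelihood, two-sided, Benjamini-Hochberg over all 10241 genes at 0.05. SE comes from the fold change and F statistic. Relative to the chromosome means an offset equal to the median log2 fold change of the chromosome. CPM are counts per 1e6 after TMM. Alternatives used DESeq2 1.42.0, limma 3.58.1, other scalings and filters, a replicate block and leaving out each library. The fits were also run on simulated counts with the same dispersion for all genes and shifts of at most chromosomes 6 and 11. That run checks the code and does not show how the fits do on these data. Replicates within groups varied beyond counting noise (chi-square over degrees of freedom 4.22 in KO and 4.78 in WT). Named are all called genes, all tested genes of chromosomes 3, 6, 8 and 11, the 5 strongest peaks with ties, genes left out by the filter, the Mrps18 family and up to 4 called genes per list; Mrps11, Mrpl46, Gabpa, Yy1, the uncalled genes of the first list and the markers are named beside them. The genes and lists were chosen with earlier results of these data known.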

Additional observations from a re-analysis of the deposited data

How the results depend on the processing

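As measured, DESeq2 called 3 mitoribosomal genes higher and 9 lower, and leaving out the genes of chromosomes 3, 6, 8 and 11 left 0 higher and 5 lower. With 1 library left out in turn, 4 to 6 were higher and 8 to 15 lower. A lone library is then assumed to vary like the other group. The other scalings, filters and limma-voom gave 5 higher and 13 to 15 lower. Relative to the chromosome, leaving out 1 library gave 0 higher, 3 to 11 lower and 49 to 57 genes below the median; 3 to 8 lower with a peak of a −log10 q of at least 5 and 0 to 3 without. The stricter peak minimums left 32 genes (−log10 q of at least 5) and 28 genes (5-fold), and a window of 500 bp or 2 kb gave 42 and 57. Leaving out the genes of chromosomes 3, 6, 8 and 11 itself removes 13 of the 20 called genes. Beyond that, the cause of these changes was not tested, and some of the fits hold fewer genes or samples.

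Libraries with the same replicate number showed no shared deviation (correlation of deviations −0.05 over 8337 genes). This value cannot tell whether they were prepared in pairs. A replicate block gave 5 higher and 13 lower as measured, and 0 higher and 10 lower relative to the chromosome. Mrps17 and Mrps18a lost their calls under it.

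Sign changes concerned comparisons that were not called, the furthest from 0 being that of Mrpl51 at −0.238 relative to its chromosome. Mrps31 was at 0.0042 with DESeq2, 0.0216 with TMM from genes outside the 4 chromosomes and 0.0064 with the replicate block. With 1 library left out, Mrps28 ranged from −0.0793 to 0.376 and Mrps31 from −0.274 to 0.365. Relative to the chromosome the ranges were −0.416 to 0.189 for Mrpl10, −0.0014 to 0.408 for Mrpl12, −0.143 to 0.281 for Mrpl19, −0.0787 to 0.222 for Mrpl27, −0.501 to 0.0797 for Mrpl51 and −0.003 to 0.130 for Mrps25. No scaling moved the median of all genes by over 0.1. Depth limits the genes left out by the filter, which held at most 9 counts in any library.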
